A study of Mus musculus with 8 samples.

Results

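The 9 genes described here, Tsc22d3, Fkbp5, Zbtb16, Sgk1, Nr3c1, Hsd11b1, Mt1, Mt2 and Txnip, are the glucocorticoid receptor, an enzyme that makes its ligand inside cells, and genes known to respond to it. They were chosen by name, with earlier results of these data known. Their unique molecular identifiers (UMIs, each of which stands for 1 captured RNA molecule) were counted in single periosteal cells. A cell was kept if its number of genes lay between 500 and 8000 and if mitochondrial transcripts gave less than 20% of its UMIs. Levels are UMIs of a gene per 1000000 UMIs of the cells concerned (CPM). All 9 were detected, among 22340 genes with at least 1 UMI in the 12253 cells kept. The cells were released with collagenase I and dispase II from the left femurs and tibias of male C57BL/6J mice aged 16 weeks, fed normal diet chow (ND) or high-fat diet chow (HFD). The labels list 4 mice per diet, but there was 1 matrix per diet and no barcode could be tied to a mouse. Each diet was therefore treated as 1 library, no test between diets was possible, and all intervals (95%) cover counting error only. No mouse received a glucocorticoid by these labels, the diet was fed to the whole animal, and neither hormone levels nor binding of the receptor were measured here.

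Glucocorticoids diffuse into cells and bind the receptor encoded by Nr3c1, which waits in the cytoplasm in a complex with heat-shock protein chaperones and then moves to the nucleus and binds a palindromic DNA element. Hsd11b1 regenerates active hormone from its inactive keto form, so that tissues differ in their exposure to the same blood level. In bone, an excess of the hormone is known to restrain osteoblasts, and in blood it prolongs the life of neutrophils while it kills sensitive lymphocytes. Several of the targets also answer to other signals: metallothionein genes to zinc and oxidants, Txnip to glucose, and Sgk1 to serum and cell volume.

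RefSeq promoter windows, the 250 bases before each start, were searched on both strands for 7 of the 9 genes. The build was GRCm38.p6, which the submitters' processing notes name as mm10. No window of Zbtb16 or Nr3c1 was searched, so the matches below say nothing of motifs in their promoters. The sequences of Sgk1, Txnip, Mt1 and Mt2 are shown because results below turn on these genes and their windows hold elements for different inputs. In Sgk1, chr10:21993640-21993889 on the plus strand, 1 of 6 annotated starts, the capitals mark the full glucocorticoid response element, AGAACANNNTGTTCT, 189 to 175 bases before the start.
Sgk1: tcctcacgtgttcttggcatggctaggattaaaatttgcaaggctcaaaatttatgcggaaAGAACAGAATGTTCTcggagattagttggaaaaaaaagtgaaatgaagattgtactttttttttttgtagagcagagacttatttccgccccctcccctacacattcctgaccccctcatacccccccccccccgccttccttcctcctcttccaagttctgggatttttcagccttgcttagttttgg
This full element was present before the starts of 3 of 27025 genes (0.0111%). In Txnip, chr3:96557707-96557956 on the plus strand, the capitals mark first a relaxed form of the element, GNACANNNTGTNC, at 172 to 160 bases, and then the carbohydrate response element through which glucose acts, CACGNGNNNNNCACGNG, at 85 to 69 bases before the start.
Txnip: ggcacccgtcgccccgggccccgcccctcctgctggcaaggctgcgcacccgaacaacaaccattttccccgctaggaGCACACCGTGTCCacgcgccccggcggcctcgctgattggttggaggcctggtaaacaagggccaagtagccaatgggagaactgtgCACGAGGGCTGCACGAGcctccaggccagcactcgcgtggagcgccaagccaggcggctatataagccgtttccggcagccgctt
The relaxed form was found in 0.440% of genes and the carbohydrate element in 0.0518%. The metallothionein genes lie next to each other, and in Mt1, chr8:94178839-94179088 on the plus strand, the capitals mark a relaxed glucocorticoid element at 94 to 82 bases and a metal response element core, TGCACNC, at 23 to 17 bases before the start.
Mt1: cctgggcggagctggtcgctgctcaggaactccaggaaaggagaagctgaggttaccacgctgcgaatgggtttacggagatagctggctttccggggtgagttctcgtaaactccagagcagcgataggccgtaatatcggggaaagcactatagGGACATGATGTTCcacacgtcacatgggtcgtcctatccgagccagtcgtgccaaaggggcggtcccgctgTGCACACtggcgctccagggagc
In Mt2, chr8:94172368-94172617 on the plus strand, the capitals mark 3 metal response element cores, of which the middle one has the form TGCGCNC, and no glucocorticoid element was matched in this window.
Mt2: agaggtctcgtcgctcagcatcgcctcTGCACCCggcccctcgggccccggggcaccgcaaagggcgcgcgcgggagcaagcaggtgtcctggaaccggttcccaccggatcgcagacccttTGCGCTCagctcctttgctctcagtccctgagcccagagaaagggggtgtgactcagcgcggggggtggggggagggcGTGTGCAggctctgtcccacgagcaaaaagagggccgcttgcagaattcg
These short cores are common, at 11.8% of genes for TGCACNC and 14% for TGCGCNC, and Txnip and Hsd11b1 also held 1 each. The 6-base half-site AGAACA, which lies within the full element, was found in 18.2% of genes, in a Tsc22d3 window 185 to 180 bases before the start, and in 3 Sgk1 windows. In the Fkbp5 window none of these motifs was matched. A match describes the letters of the window only, and binding was not measured.

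The ND library held 6029 kept cells and the HFD library 6224, with 48106513 and 49411888 UMIs and medians of 4610 and 4823.5 UMIs per cell. The libraries shared 15 barcodes, 14 of them among the kept cells. Clusters drawn without the 9 genes were named from marker genes, which gave 11 classes with at least 30 cells in each library, while 5.47% of ND and 4.85% of HFD cells stayed unnamed. Mesenchymal-like cells made up 6.78% of the ND and 10.7% of the HFD library. Genes that respond to tissue digestion were lower in HFD in all 11 classes: the summed level of 18 such genes ranged from 6773 to 34315 CPM in ND and from 2930 to 25331 in HFD, with log2 ratios of HFD over ND from -1.21 to -0.16, of which 6 were past 1.5-fold. Of these genes, Jun was at 899 CPM in ND and 215 in HFD in neutrophil-like cells, and Fos at 6665 and 5329 in mesenchymal-like cells. The ratio of the summed level was lowest in neutrophil precursor-like cells (-1.21, 6773 and 2930 CPM). In NK cell-like cells it was nearest to none (-0.16, 15704 and 14030 CPM). These values move in the same direction as several of the results that follow, and their part in them was not tested. In 3 clusters, called mostly of ND below, over 70% of the cells came from ND. These were 1 each of neutrophil-like (156 ND and 16 HFD cells), T cell-like (109 and 41) and macrophage-like cells (113 and 36). The digestion genes were high in them in both libraries, at 31805 and 26149, 28233 and 25500, and 49635 and 47624 CPM. A B cell-like cluster of 104 ND and 47 HFD cells fell below this cut and was kept where these clusters were left out. Its digestion genes were at 54420 and 47086 CPM.

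Over all kept cells together, no member differed by 1.5-fold between the diets (0 of 9), where 4.38% of 15994 genes with at least 20 UMIs were at least 1.5-fold lower in HFD and 11.1% at least 1.5-fold higher. Among mesenchymal-like cells 4 of 9 members were at least 1.5-fold lower in HFD (Fkbp5, Sgk1, Mt1 and Mt2) and none higher, against 5.82% of all genes lower and 8.03% higher. Neutrophil precursor-like cells had 5 of 9 lower (Tsc22d3, Zbtb16, Sgk1, Mt2 and Txnip), against a background of 6.16% lower and 4.48% higher. Of these, Zbtb16 rested on 23 and 10 UMIs, with an interval that held 0. At a clustering resolution of 0.25 neither Zbtb16 nor Txnip was 1.5-fold lower in any class. Neutrophil-like cells had 2 of 9 lower (Tsc22d3 and Sgk1; background 8.5% lower, 4.39% higher), and macrophage/monocyte-like cells also 2 of 9 (Fkbp5 and Sgk1; 6.54% and 4.24%). Of 8 members measured in B cell-like cells, Sgk1 was lower and Mt1 higher (background 6.2% and 3.92%). Of 7 measured in T cell-like cells, Tsc22d3 was lower (8.12% and 7.96%). Of 6 measured in endothelial-like cells, Tsc22d3 was lower and Mt2 higher, the latter on 9 and 30 UMIs (9.39% and 10.1%). In the 4 other classes, dendritic-like cells had 1 of 6 members lower (Txnip) and 2 higher (Fkbp5 and Nr3c1), where 543 of 5692 genes were lower and 632 higher. This class was a single cluster with Siglech and Bst2 among its leading genes. Another cluster, of 116 ND and 138 HFD cells with Cd209a and H2-Ab1 among its leading genes, stayed unnamed and was in no class. Basophil/mast-like cells had 2 of 5 lower (Sgk1 and Txnip) and 1 higher (Mt1; 541 and 584 of 5097 genes), pericyte/mural-like cells had 1 of 6 lower (Tsc22d3; 628 and 582 of 5102), and NK cell-like cells had 0 of 7 past the fold (474 and 606 of 5790). The median log2 ratio of the measured members was -0.59 in neutrophil precursor-like, -0.54 in mesenchymal-like, -0.41 in macrophage/monocyte-like, -0.40 in neutrophil-like, -0.36 in pericyte/mural-like and -0.27 in dendritic-like cells. It was -0.10 in B cell-like, -0.05 in T cell-like, 0.09 in NK cell-like, 0.22 in endothelial-like and 0.23 in basophil/mast-like cells, where the medians of all genes lay between -0.07 and 0.06 over the classes. With so few members these shares are descriptions of 2 libraries.

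**Figure D1:**
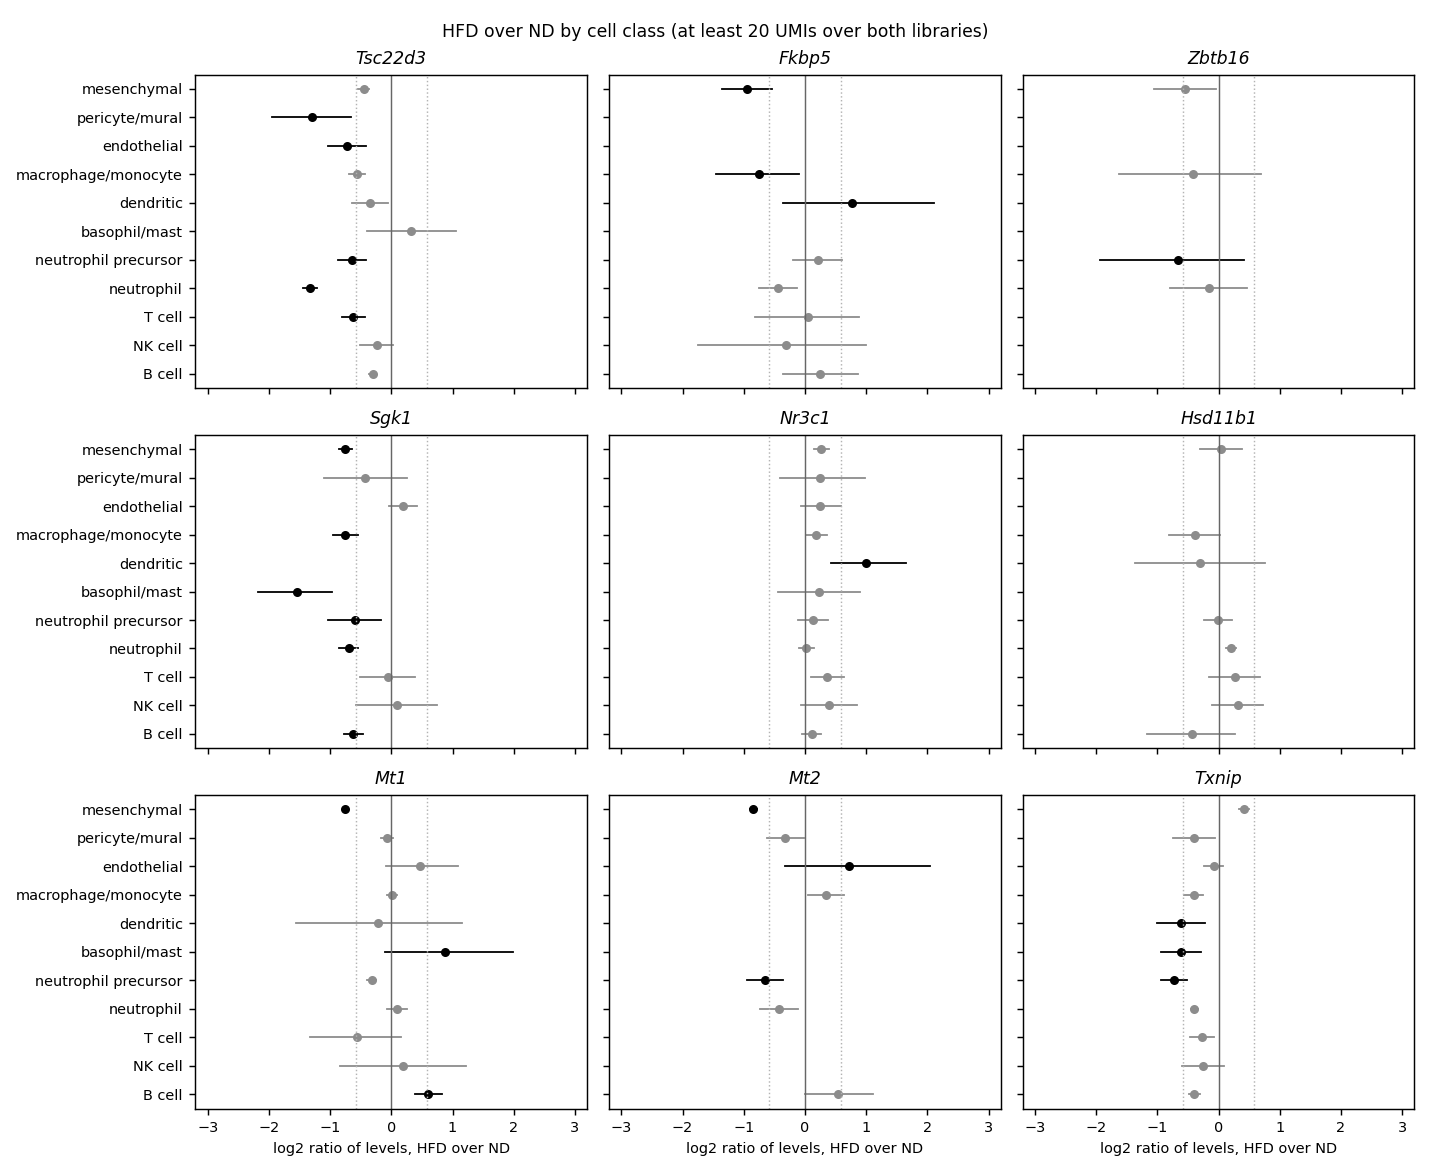
Log2 ratio of the level in HFD over ND (horizontal axis) for each of the 9 genes in each cell class (vertical axis), where at least 20 UMIs were counted over both libraries. Points are ratios with 95% counting intervals, black where past 1.5-fold (dotted lines) and grey otherwise. The points of Tsc22d3 lie left of 0 in 10 of 11 classes, those of Nr3c1 lie right of 0 in 11 of 11, and Txnip lies right of 0 in mesenchymal-like cells alone.

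Nr3c1, the receptor itself, was present in every class. In ND its level was highest in endothelial-like cells, at 199 CPM (interval 164 to 239), and next in mesenchymal-like cells, at 172 (161 to 184), and these neighbours overlapped. T cell-like cells followed at 113 and neutrophil precursor-like cells were lowest at 43.2. HFD values were higher than ND values in all 11 classes, which was true of 1.16% of the 3270 genes with at least 20 UMIs in every class. Most of the differences were small: 172 and 208 CPM in mesenchymal-like cells (log2 ratio 0.27, interval 0.15 to 0.40), 113 and 146 in T cell-like cells (0.37, 0.09 to 0.64) and 65.9 and 66.9 in neutrophil-like cells (0.02, -0.10 to 0.14). Only the 44 ND and 59 HFD dendritic-like cells were past 1.5-fold, with 66.7 and 135 CPM from 32 and 90 UMIs. The intervals lay above 0 in 4 of the 11 classes, and when every cell was thinned to 1000 UMIs, HFD was higher in 5 of the 7 classes that could still be measured. The log2 ratio of T cell-like cells was then -0.086, and the lowest of the 7 was -0.47. Of thinned endothelial-like cells, 21.2% in ND and 17.0% in HFD had a UMI of the gene. The shares were 12.2% and 10.2% in NK cell-like, 19.1% and 19.3% in mesenchymal-like, and 13.5% and 13.9% in T cell-like cells. They were 9.58% and 9.98% in macrophage/monocyte-like, 7.61% and 9.03% in B cell-like, and 7.48% and 8.58% in neutrophil-like cells. By cluster the direction was less uniform: of 27 clusters with at least 20 UMIs, 21 were higher in HFD and 6 lower. Among these, 3 were past 1.5-fold higher and 1 lower, and intervals lay above 0 in 7 and below 0 in 2. Of the 6 neutrophil clusters, 1 met the naming rule as mature and 2 as immature, and 3 had too few markers detected for either name. The mature cluster had 76.3 and 91.8 CPM of Nr3c1, and the immature clusters 42.5 and 36.1, and 51.9 and 59.1.

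Hsd11b1, which regenerates active hormone, had its highest level in blood cells rather than in the stroma. Neutrophil-like cells held 71.2% of its UMIs in ND and 76.5% in HFD, at 144 CPM (138 to 150) and 165 (159 to 171). NK cell-like cells were close behind at 128 (104 to 157) and 159 (130 to 193), and the intervals of these neighbours overlapped in ND. T cell-like cells had 53.8 and 64.5, neutrophil precursor-like cells 52.9 and 52.8, and mesenchymal-like cells 25.3 and 26.0. B cell-like cells were at 5.36 and 3.94 CPM. The clusters named immature neutrophils had 163 and 191, and 178 and 199.9 CPM, above the 132 and 136 of the cluster named mature. After thinning to 1000 UMIs per cell, which left out 55 ND and 51 HFD cells, the share of cells with a UMI was 9.95% and 12% in neutrophil-like cells and 13.7% and 16.7% in NK cell-like cells, against 0.595% and 0.136% in B cell-like cells (38.6% and 44.8%, 47.3% and 59.3%, and 2.31% and 1.76% without thinning, at median depths of 4122 and 4303, 5072 and 5344.5, and 3885 and 3822 UMIs). Among mesenchymal-like cells the gene was mostly found in the Ccl11/Col15a1 fibroblast-like subcluster, at 56.4 CPM in ND and 61.6 in HFD, while the Pi16/Dpp4 fibroblast-like subcluster had 10.3 and 4.33 and the osteoblast-like subcluster 4.04 and 7.56. A subcluster of 37 ND and 32 HFD cells that also held neutrophil RNA had 49.9 and 69.6. None of the 8 classes with at least 20 UMIs was past 1.5-fold between the diets, and the ratios ran from -0.44 to 0.31 on the log2 scale.

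Tsc22d3 encodes GILZ, a leucine zipper protein that glucocorticoids induce strongly in lymphocytes and that restrains inflammatory transcription. Its level was highest in B cell-like cells, at 716 CPM in ND (697 to 735) and 581 in HFD (564 to 598), which was 1.88-fold above the next class in ND. Dendritic-like (381 and 300), mesenchymal-like (381 and 278), NK cell-like (375 and 318) and T cell-like cells (374 and 243) stood together in the ND order, with overlapping intervals. Neutrophil-like cells had 124 and 49.3, and the 47 ND and 53 HFD basophil/mast-like cells had 57.8 and 72.4. The gene was lower in HFD in 10 of the 11 classes, with intervals below 0 in 9 and past 1.5-fold in 5, and 2.54% of the 3270 genes measured in every class were lower in as many. In neutrophil-like cells 1969 UMIs were counted in ND and 840 in HFD, and the level was 2.50-fold lower in HFD (log2 ratio -1.32, interval -1.44 to -1.21). Pericyte/mural-like cells were close to this on few UMIs, with 162 and 65.7 CPM from 51 and 37 UMIs (-1.29, -1.95 to -0.66), and were at -0.81 without the 5% of cells with the highest doublet scores. It was smallest among the lower classes in NK cell-like cells (-0.24, -0.50 to 0.03), and B cell-like cells were at -0.30 (-0.36 to -0.24).

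The neutrophil result was shared by 5 of 6 neutrophil clusters, each past 1.5-fold. The cluster named mature had 132 CPM in ND and 57.2 in HFD, the clusters named immature 94.8 and 40.9, and 72.9 and 30.2, and both unnamed clusters among the 5 had 194 and 88.7, and 91.4 and 41.3. The exception was the cluster with 156 ND and 16 HFD cells, at 319 and 356 CPM. The log2 ratio of the class was -1.22 without that cluster and -1.02 with the clusters weighted alike in both libraries. In the other clusters that came mostly from ND the levels were likewise close, at 530 and 546 CPM among T cell-like and 347 and 343 among macrophage-like cells. With equal cluster weights the ratio of T cell-like cells moved from -0.62 to -0.31, inside 1.5-fold, and that of macrophage/monocyte-like cells from -0.56 to -0.29. Among the 25 clusters not mostly of ND cells, 24 had at least 20 UMIs, of which 21 were lower in HFD and 13 were past 1.5-fold. Thinned to 1000 UMIs per cell, 12.9% of ND (interval 11.6 to 14.3) and 5.94% of HFD neutrophil-like cells (5.03 to 6.96) had a UMI of the gene, against 41.1% and 24.3% without thinning. In these cells the digestion genes were at 8326 and 4481 CPM, and their part in the difference was not tested.

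**Figure D2:**
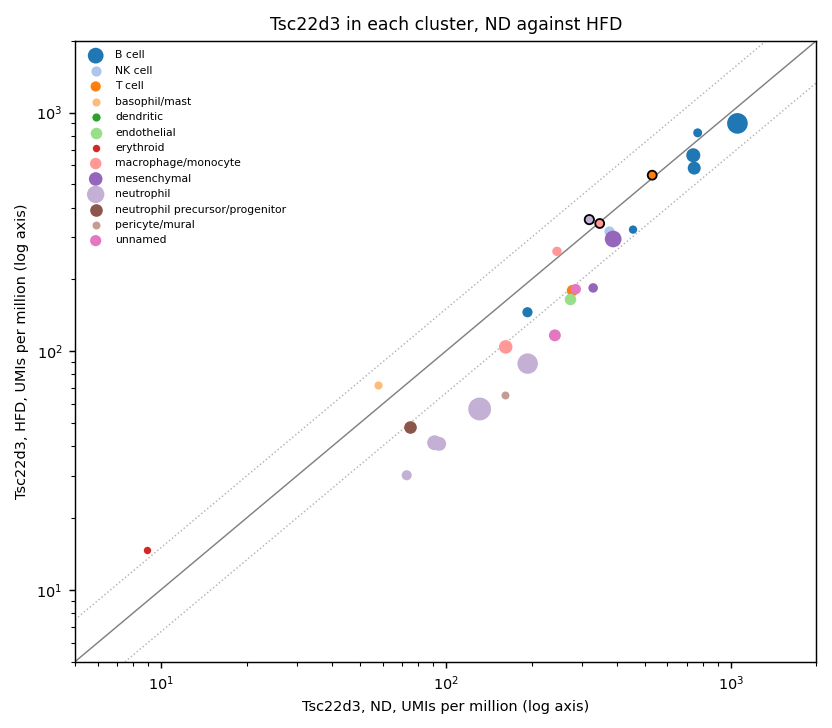
Level of Tsc22d3 in each of the 28 clusters, in CPM, in ND (horizontal, log axis) against HFD (vertical, log axis). Each point is a cluster, colored by its class and sized by its number of cells, black outlines mark the 3 clusters with over 70% ND cells, the solid line is equality and the dotted lines are 1.5-fold. The outlined points sit near equality, and 5 of the 6 neutrophil clusters lie below the lower dotted line.

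Within mesenchymal-like cells Tsc22d3 varied more between subclusters than between diets. A subcluster led by Wnt16, H19 and Ostn, which met no name, had 961 CPM in ND (902 to 1023) and 765 in HFD (719 to 812). The osteoblast-like subcluster had 309 and 164 (log2 ratio -0.92, -1.24 to -0.59), the Ccl11/Col15a1 fibroblast-like subcluster 220 and 167, and the Pi16/Dpp4 fibroblast-like subcluster 115 and 110 (-0.06, -0.44 to 0.32). Of 8 subclusters with at least 20 UMIs, 7 were lower in HFD and 2 were past 1.5-fold. A shallow, unnamed subcluster of 22 ND and 53 HFD cells (median 2074 UMIs) best matched B cell markers, with Cd79a, Ebf1, Vpreb3 and Ighm detected. These cells stayed in the mesenchymal-like values, and the part of B cell RNA in those values was not tested.

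Fkbp5 encodes a co-chaperone that lowers the affinity of the receptor for its ligand, and its induction closes a feedback loop. It was sparse, with 621 UMIs in ND and 520 in HFD over all kept cells. Mesenchymal-like cells had 25.1 CPM in ND (20.8 to 30.0) and 13 in HFD (10.5 to 16.0), a log2 ratio of -0.94 (-1.35 to -0.54) on 120 and 91 UMIs. The Wnt16-led subcluster had 34.0 and 17.5, the Ccl11/Col15a1 fibroblast-like subcluster 26.5 and 13.7, and the Pi16/Dpp4 fibroblast-like subcluster 17.5 and 22.5. Thinned to 1000 UMIs per cell, 8 ND and 10 HFD mesenchymal-like cells had a UMI of Fkbp5. These were 1.96% (interval 0.848 to 3.82) and 1.51% (0.724 to 2.75). In the Wnt16-led subcluster the shares were 3.37% and 5.65%, on 3 and 7 cells, and in the Ccl11/Col15a1 fibroblast-like subcluster 1.89% and 0.571%, on 2 and 1. These cells were too few to give a direction. Macrophage/monocyte-like cells had 9.33 and 5.53 (56 and 30 UMIs), and neutrophil-like cells 12.5 and 9.22. Of 8 classes with at least 20 UMIs, 4 were lower and 4 higher, and the dendritic-like value, past 1.5-fold upward, rested on 9 and 22 UMIs with an interval from -0.36 to 2.12. In ND its highest class overlapped the next.

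Zbtb16, a zinc finger transcription factor that glucocorticoids induce in stromal cells and that also marks innate-like T cells, was the rarest member, with 173 and 182 UMIs. Mesenchymal-like cells held 67 UMIs in each library, at 14 CPM in ND (10.9 to 17.8) and 9.61 in HFD (7.44 to 12.2), a log2 ratio of -0.54 (-1.06 to -0.03). Pi16/Dpp4 fibroblast-like cells had 21.7 and 13.9 CPM. In neutrophil-like cells it had 46 UMIs in ND and 44 in HFD, of which 24 and 28 lay in 1 cluster without a maturity name, at 11.5 and 14.9 CPM. The ratios were below 0 in 4 of 4 classes with at least 20 UMIs, but in 2 of 4 at a resolution of 0.25 or 1 or with cells over 200 genes. No UMI was counted in B cell-like cells, which allows up to 0.392 and 0.394 CPM.

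Sgk1 encodes a kinase that promotes sodium transport and survival and carries the full element shown above. In ND it was highest in endothelial-like cells, at 390 CPM (340 to 444), then in mesenchymal-like (316, 301 to 333) and basophil/mast-like cells (175, 141 to 215), and these intervals did not overlap. It was lower in HFD in 8 of 10 classes with at least 20 UMIs and past 1.5-fold in 6, a count that was 3 at a resolution of 0.25 or 1. Mesenchymal-like cells had 316 and 188 CPM (log2 ratio -0.75, -0.86 to -0.65), macrophage/monocyte-like cells 97.1 and 57.7, neutrophil-like cells 55.0 and 34.0, B cell-like cells 115 and 75.2, and basophil/mast-like cells 175 and 59.7. Endothelial-like cells went the other way, with 390 and 445 (0.19, -0.04 to 0.42). Among mesenchymal subclusters 8 of 9 were lower and 7 past 1.5-fold: 458 and 255 CPM in Ccl11/Col15a1 fibroblast-like, 160 and 91.9 in Pi16/Dpp4 fibroblast-like and 192 and 98.3 in osteoblast-like cells. The subcluster with neutrophil RNA was the exception, with 105 and 203. With every cell thinned to 1000 UMIs, 21.8% of ND and 14.3% of HFD mesenchymal-like cells had a UMI of Sgk1. The shares were 23.6% and 15.4% in Ccl11/Col15a1 fibroblast-like and 12.8% and 7.29% in Pi16/Dpp4 fibroblast-like cells. In osteoblast-like cells the share was not lower in HFD, at 8.77% (interval 2.91 to 19.3) and 12.8% (7.50 to 20.0), on 5 and 16 cells. The macrophage/monocyte value was within 1.5-fold without the cluster mostly of ND cells (-0.48) and at another clustering resolution (-0.36), as was the neutrophil value without its mostly ND cluster (-0.56), while the mesenchymal values ran from -0.93 to -0.74 over all settings.

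**Figure D3:**
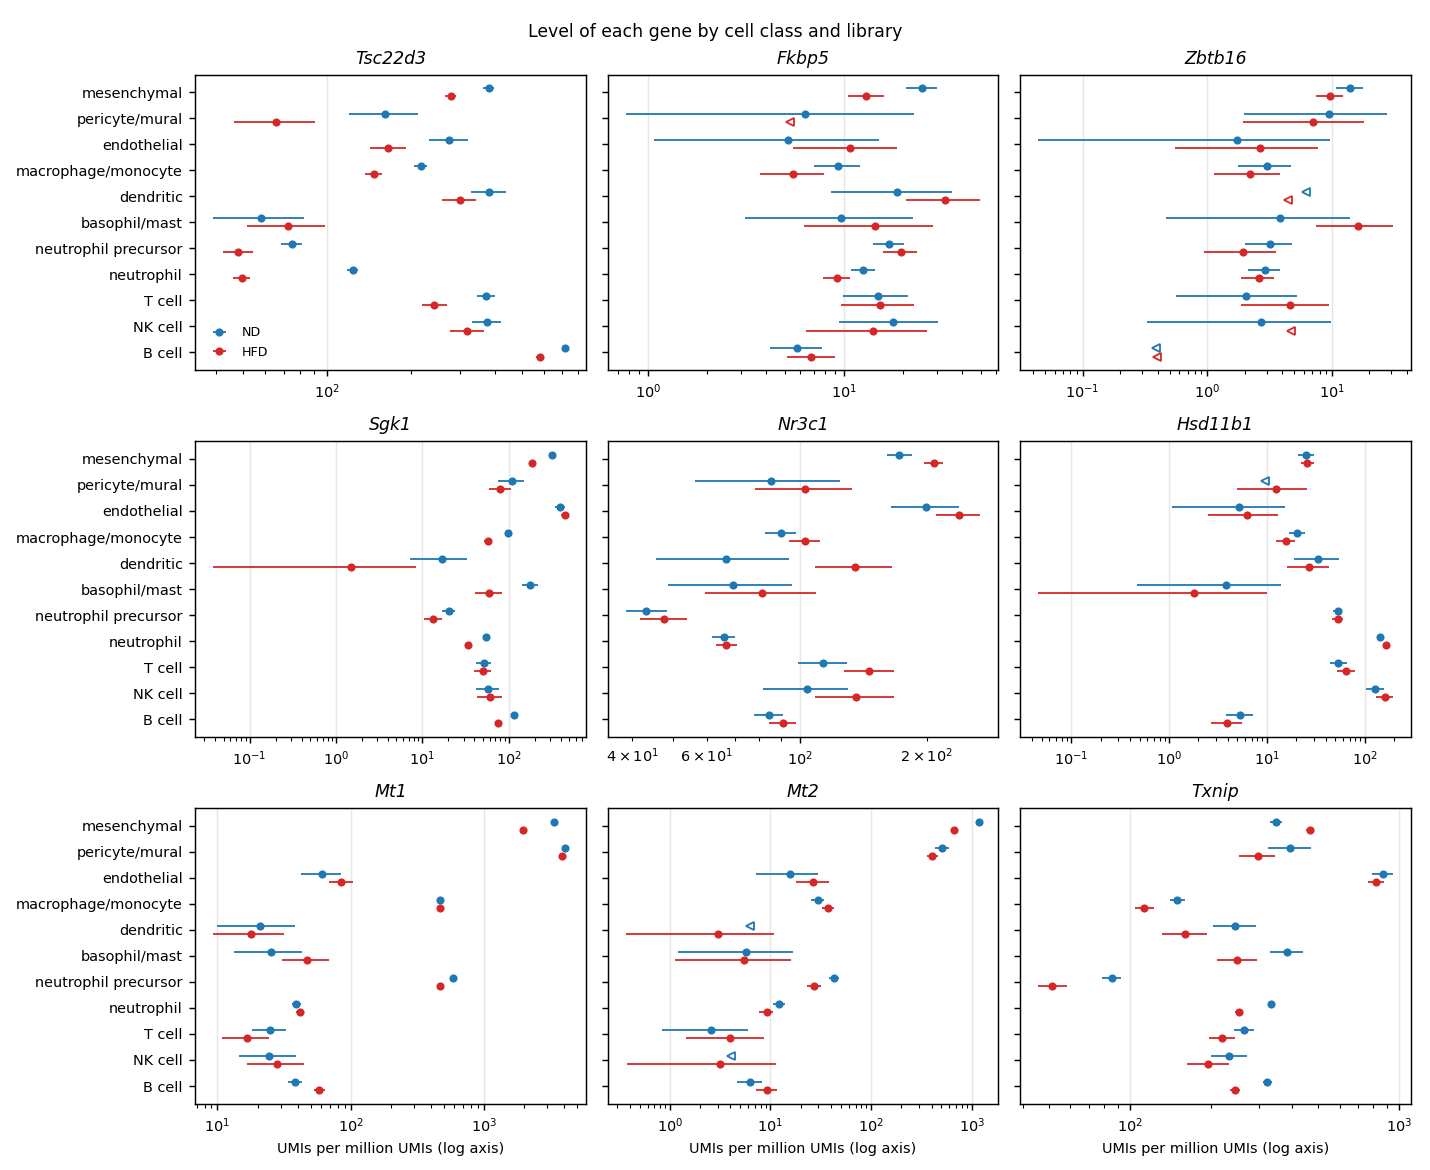
Level of each of the 9 genes (horizontal log axis, CPM) by cell class (vertical axis) in ND (blue) and HFD (red). Points are levels of summed counts with 95% counting intervals, and open triangles mark the limit where no UMI was counted. Mt1 and Mt2 peak in mesenchymal-like and pericyte/mural-like cells, Hsd11b1 in neutrophil-like and NK cell-like cells, Tsc22d3 in B cell-like cells, and Sgk1, Nr3c1 and Txnip in endothelial-like cells.

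The metallothioneins, small cysteine-rich proteins that bind zinc and copper and scavenge oxidants, were the most stromal of the set. Mesenchymal-like cells held 61.0% of the Mt1 UMIs in ND and 56.4% in HFD, and 84.0% and 77.5% of those of Mt2. Mt1 was highest in the 31 ND and 59 HFD pericyte/mural-like cells, at 4058 CPM (3838 to 4286) and 3873 (3712 to 4039), and next in mesenchymal-like cells. Mt2 had the reverse order, with 1191 CPM in mesenchymal-like and 507 in pericyte/mural-like cells of ND. Together with Txnip it was 1 of 2 members whose highest ND class stood at least 2-fold above the next (2 of 9, against 24.6% of all genes). The transcripts of these neighbours are alike in sequence, and how this bears on their counts was not measured. The ratio of Mt1 to Mt2 UMIs was 2.80 in ND and 2.97 in HFD in mesenchymal-like, 8.01 and 9.53 in pericyte/mural-like, 13.6 and 17.2 in neutrophil precursor-like, 15.7 and 12.5 in macrophage/monocyte-like and 3.19 and 4.54 in neutrophil-like cells. On few Mt2 UMIs it was 9.6 and 4.17 in T cell-like cells (5 and 6 UMIs) and 4.33 and 8.67 in basophil/mast-like cells (3 and 3).

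In mesenchymal-like cells both genes were lower in HFD. Mt1 had 3334 CPM in ND (3282 to 3386) and 1969 in HFD (1936 to 2002), 1.69-fold lower, and Mt2 had 1191 (1160 to 1222) and 662 (643 to 682), 1.80-fold lower. In pericyte/mural-like cells the values were 4058 and 3873 for Mt1 (log2 ratio -0.07, -0.17 to 0.03) and 507 and 406 for Mt2 (-0.32, -0.62 to -0.02). Macrophage/monocyte-like cells had 466 and 470 for Mt1, mostly from a cluster led by C1q genes at 1409 and 1643, and neutrophil precursor-like cells had 584 and 467. By subcluster, Mt1 was 4862 and 3977 CPM in Ccl11/Col15a1 fibroblast-like cells, the highest, 4459 and 2268 in Pi16/Dpp4 fibroblast-like cells, 2495 and 883 in the Wnt16-led subcluster and 767 and 266 in osteoblast-like cells, the lowest. Thus the difference was 1.22-fold in the first and 2.89-fold in the last of these. Mt1 was lower in HFD in 8 of 9 subclusters and past 1.5-fold in 5, and Mt2 in 9 of 9 and past 1.5-fold in 6. With the subclusters weighted alike in both libraries the log2 ratios were -0.70 for Mt1 and -0.76 for Mt2, against -0.76 and -0.85 unweighted. The digestion genes were at 26255 and 20200 CPM in these cells, and their part in the difference was not tested.

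**Figure D4:**
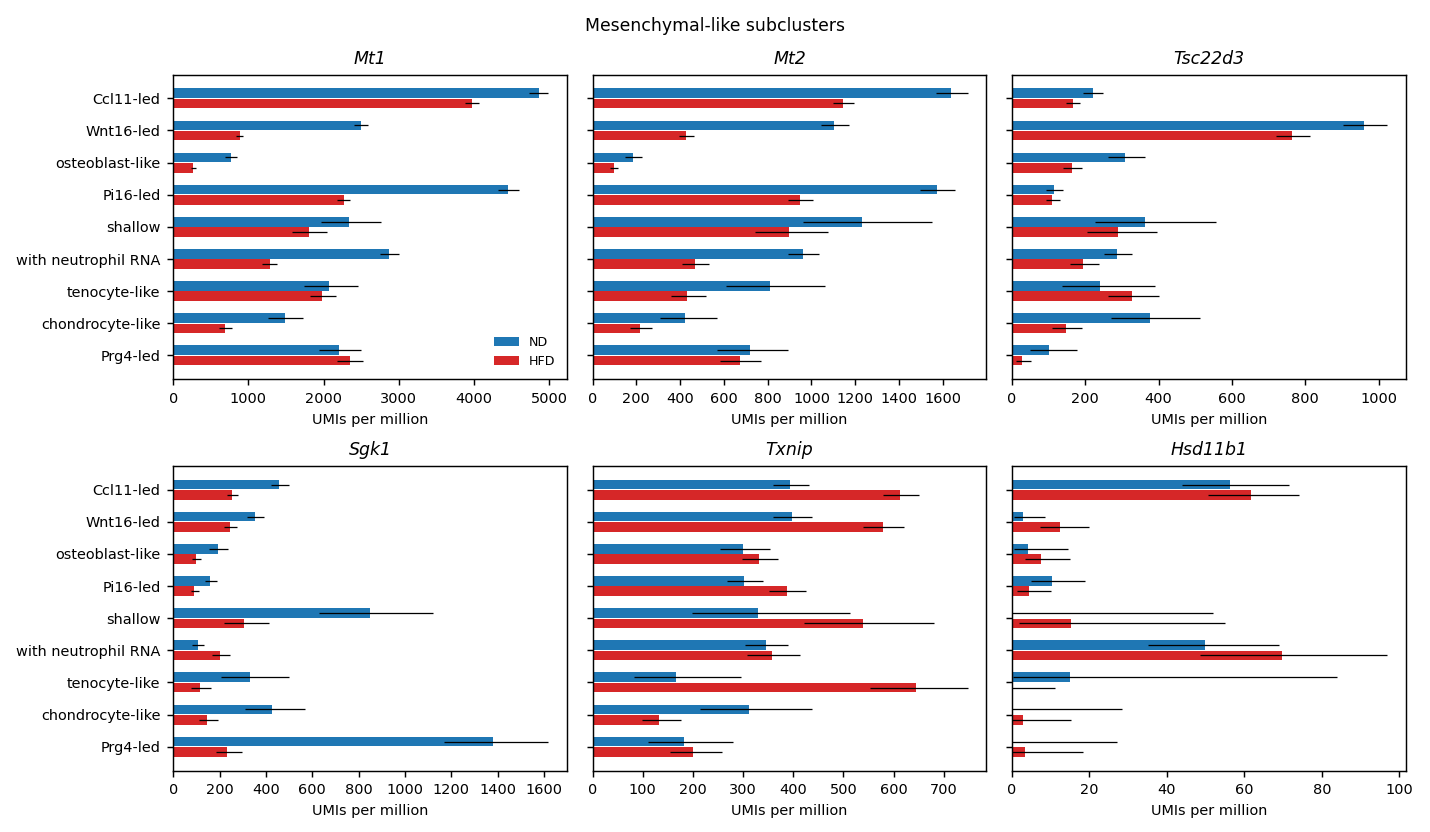
Levels of 6 of the genes (horizontal axis, CPM, from 0) in the 9 subclusters of mesenchymal-like cells (vertical axis) in ND (blue) and HFD (red), with 95% counting intervals as black lines. Mt1 and Mt2 are lower in HFD in the 4 largest subclusters, Tsc22d3 peaks in the Wnt16-led subcluster, Txnip is higher in HFD in 8 of 9 subclusters, and Hsd11b1 is found in the Ccl11-led subcluster and in the one with neutrophil RNA.

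Over single cells, Mt1 and Mt2 went together within mesenchymal-like cells (Pearson r of log2 levels 0.85 over 409 ND and 0.71 over 669 HFD cells), where Mt1 and Tsc22d3 did not (-0.15 in both). These correlations share the depth of each cell and are descriptions. After thinning, 67.2% of ND and 51.2% of HFD mesenchymal-like cells had an Mt1 UMI (90.0% and 79.7% unthinned), against 1.98% and 2.51% of B cell-like (8.13% and 9.76% unthinned) and 2.55% and 2.23% of neutrophil-like cells (9.67% and 10.1% unthinned). The median depths of mesenchymal-like cells were 10640 and 9527 UMIs, and those of the other classes are given above. Free RNA was not measured, and its part in the low shares of B cell-like and neutrophil-like cells was not tested. The only class with Mt1 past 1.5-fold upward and an interval above 0 was that of B cell-like cells, with 38.3 CPM in ND and 58.2 in HFD (0.60, 0.39 to 0.82). It was 0.05 without the 5% of cells with the highest doublet scores. In a shallow, unnamed cluster (median 1448.5 UMIs) Mt1 was at 664 and 2246 CPM. Its subcluster led by Nppc, Chodl and Gal, of 7 ND and 28 HFD cells, had 3530 and 5361 for Mt1 and 368 and 2413 for Mt2. This subcluster was deeper, with a median of 5133 UMIs. It best matched skeletal muscle, with 2 of 7 markers detected (Pax7 and Myf5), too few for a name.

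Txnip encodes an inhibitor of thioredoxin that also limits glucose uptake, and glucose induces it through the paired boxes shown above. Endothelial-like cells had the highest level, at 868 CPM in ND (793 to 947) and 820 in HFD (768 to 875), 2.21-fold above pericyte/mural-like cells in ND, which had 393 and 298. The neutrophil cluster named mature had 590 and 511 CPM, and those named immature 135 and 83.3, and 70.7 and 50.2. In 10 of 11 classes the level was lower in HFD, in 8 with an interval below 0 and in 3 past 1.5-fold, namely basophil/mast-like (381 and 250), dendritic-like (246 and 160) and neutrophil precursor-like cells (85.4 and 51.4). The count of 3 was 0 of 9 classes at a resolution of 0.25, and 1 of 11 with the members kept among the variable genes or with cells over 200 genes. T cell-like cells, at -0.27, were at 0.023 with the same cluster weights in both libraries and at 0.039 without the cluster mostly of ND cells. Mesenchymal-like cells were the exception, with 348 in ND (332 to 365) and 465 in HFD (449 to 482), a log2 ratio of 0.42 (0.33 to 0.50), within 1.5-fold. This direction held in 8 of 9 subclusters, past 1.5-fold in 3 and with intervals above 0 in 4. The other subcluster had a log2 ratio of -1.24, with an interval below 0. Levels were 394 and 614 CPM in Ccl11/Col15a1 fibroblast-like cells, 398 and 579 in the Wnt16-led subcluster, 302 and 387 in Pi16/Dpp4 fibroblast-like cells and 301 and 333 in osteoblast-like cells. The difference between mesenchymal-like and other cells could not be tested with 1 library per diet.

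Other genes of glucocorticoid signaling and of the metallothionein and thioredoxin systems, 47 in all, gave the surroundings of these values. In mesenchymal-like cells 42 had at least 20 UMIs, of which 5 were at least 1.5-fold below and 2 as far above their ND level, at a median log2 ratio of -0.19 against 0.05 for all genes. Ratios lay below 0 for 33 of the 42, where 5374 of 12622 genes did. Among 11 induced feedback and transcription regulators there, 10 had ratios below 0 with a median of -0.41. So did 6 of 6 anti-inflammatory targets, 6 of 10 receptor, chaperone and cofactor genes and 4 of 6 metabolic targets. It was 3 of 4 each for the metallothionein and the thioredoxin groups. Lcn2, a secreted lipocalin that neutrophils make in quantity, was at 560 and 258 CPM, and the part in this of the subcluster with neutrophil RNA, which has Lcn2 among its leading genes and held 37 of 409 ND and 32 of 669 HFD cells, was not tested. Glul, the glutamine synthetase, was at 304 and 188, and Errfi1, a feedback inhibitor of EGF receptors, at 395 and 252. Angptl4, an inhibitor of lipoprotein lipase, was higher in HFD, at 45.6 and 93.3, as was Snai2, a mesenchymal transcription factor, at 28.9 and 44.9. In neutrophil-like cells 6 of 35 were lower and 1 higher (median -0.18), among them Hsp90aa1, the stress-inducible chaperone of the receptor (301 and 117), Zfp36, which speeds the decay of cytokine mRNAs (633 and 297), Errfi1 (30.6 and 18.4), Dusp1, a phosphatase of MAP kinases (493 and 308), and Hspa8 (654 and 432). In macrophage/monocyte-like cells 5 of 36 were lower and 1 higher (median -0.10), with Lcn2 at 232 and 70.2, Hsp90aa1 at 1105 and 491, Zfp36 at 884 and 421 and Dusp1 at 702 and 350. In B cell-like cells 11 of 36 were lower and 1 higher (median -0.25), led by Ddit4, an inhibitor of mTOR (86.1 and 31.8), Dusp1 (177 and 82.3), Hsp90aa1 (2182 and 1135), Il1r2, the decoy receptor of interleukin 1 (28.5 and 15.0), and Zfp36 (469 and 264). In endothelial-like cells 8 of 37 were lower and 2 higher (median -0.16), with Hsp90aa1 at 986 and 500, Zfp36 at 1988 and 1067, Lcn2 at 471 and 269, Dusp1 at 1574 and 932 and Cebpd, an acute-phase transcription factor, at 499 and 318. In T cell-like cells 4 of 32 were lower and 1 higher (median -0.31), with Lcn2 at 95.8 and 35.2, Il1r2 at 71.2 and 41.9 and Hsp90aa1 at 1300 and 845. Lcn2 and Il1r2 were among the leading genes of neutrophil clusters. The part of neutrophil RNA in their levels in the other classes was not tested. Dusp1 and Zfp36 are also among the digestion genes, and the part of digestion in these counts was not tested. Over all kept cells 4 of 44 were lower and 4 higher (median -0.05). The shares of all genes lower and higher, against which these counts are to be read, were 5.82% and 8.03% in mesenchymal-like, 8.5% and 4.39% in neutrophil-like, 6.54% and 4.24% in macrophage/monocyte-like and 6.2% and 3.92% in B cell-like cells. They were 9.39% and 10.1% in endothelial-like, 8.12% and 7.96% in T cell-like and 4.38% and 11.1% in all kept cells.

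The genes whose levels followed each member most closely over 22 points, the 11 classes in each library, were different for nearly every member. Mt1 went with Hebp1 (Pearson r 0.98), Mt2 (0.94) and Snx24 (0.93), and Mt2 with Ildr2, Axl and Efemp2 (0.96, 0.96 and 0.95). Nr3c1 went with Wnk1, Tgfbr2 and AY036118 (0.93, 0.89 and 0.87), Tsc22d3 with 4933421O10Rik, Jmjd1c and Galnt11 (0.89, 0.86 and 0.86), and Sgk1 with Slc4a2, Dvl1 and Egr1 (0.89, 0.85 and 0.83). Egr1 is also among the digestion genes, and the part of digestion in the Sgk1 values was not tested. Txnip went with Rab5a, Lars2 and Tprgl (0.85, 0.85 and 0.84), Zbtb16 with Serpine2, Gpc4 and Gfpt1 (0.84, 0.81 and 0.81), Hsd11b1 with Mppe1, Glipr2 and Ppp1r3b (0.83, 0.78 and 0.78), and Fkbp5 with Runx2, Runx2os1 and Cd47 (0.74, 0.70 and 0.69). Apart from Mt1 and Mt2, the highest values between members were those of Sgk1 with Txnip (0.77), Mt2 with Zbtb16 (0.67) and Nr3c1 with Txnip (0.64), while Tsc22d3 and Fkbp5 stood at 0.15. The points share their libraries and depth, so these values describe the pattern across classes and carry no test. Between the libraries, the Spearman rho of the class order over 11 classes was 0.90 to 0.98 for 7 members, but 0.65 for Fkbp5 and 0.69 for Zbtb16. Fkbp5 was highest in mesenchymal-like cells in ND and in dendritic-like cells in HFD, with mesenchymal-like cells at rank 6, and Zbtb16 was highest in mesenchymal-like cells in ND and in basophil/mast-like cells in HFD, on 9 UMIs.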

How the data were processed

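Droplet-based single-cell RNA sequencing of periosteal cells was deposited as 1 matrix per diet. Per the labels and the submitters' processing notes, the authors made the counts with Cell Ranger 6.0.1 on mm10, as whole numbers of UMIs per gene and barcode without normalization. The limits on cells (500 to 8000 genes, mitochondrial share below 20%) follow the study's methods. Clusters over the merged libraries came from Seurat 5.3.0 in R 4.3.3, with sctransform 0.4.2, cell-cycle scores regressed out, resolution 0.5 and 30 principal components, after the 9 members and the 47 other listed genes were removed from the variable genes. Mesenchymal-like cells and the shallow cluster were clustered again. Clusters were named by the class with the highest markers, given at least 3 of them detected at 2-fold the median cluster, and were left unnamed with more markers of another class among its top 10 genes, or as many if shallow. This last rule was added once clusters had been inspected. Subclusters also needed a marker of their own among the top 10. Scrublet (scanpy 1.11.5) called 0.149% of ND and 0.370% of HFD cells, under the 0.5% taken here as the least for a working caller. Whether doublets had been removed before deposit was not known here. Doublets were kept, and the cells with the 5% highest scores were removed in an added alternative.

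Levels are summed UMIs per 1000000 UMIs of the class with exact Poisson intervals. Ratios of HFD over ND are on the log2 scale with 0.5 added to each count and exact binomial intervals, shares of cells have Clopper-Pearson intervals, and a count of 0 was taken to allow 3. A ratio needed 20 UMIs over both libraries and counted as past the fold from 1.5 upward. The 2 libraries held 48558889 and 49940976 UMIs before the filter, so the precision of a level rests on the UMIs of the gene in the class. Ratios and intervals were checked on simulated counts drawn from the Poisson model that the intervals assume. This tests the computation only, as the simulation held no variation between cells or mice. The members and lists were chosen with earlier results of these data known. The genes named were the members, listed pathway genes with at least 200 UMIs past 1.5-fold (at most 5 a class), the 3 genes most like each member by log2(CPM + 10) among genes with at least 200 UMIs, cluster markers, and Fos and Jun. Alternatives used edgeR 4.0.16 (TMM) and DESeq2 1.42.0 (size factors) for scaling only. Scripts ran in Python 3.11.15 with pandas 2.3.3, scipy 1.17.1, matplotlib 3.10.9 and numpy 2.4.6. Promoters are from RefSeq.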

Additional observations from a re-analysis of the deposited data

Results flagged for a closer look

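Mt1 moved in opposite directions in 2 classes, each past 1.5-fold with a counting interval on 1 side of 0: its log2 ratio of HFD over ND was -0.76 in mesenchymal-like cells and 0.60 in B cell-like cells. With 1 library per diet the difference was not tested. The B cell-like value rested on 293 and 443 UMIs and was 0.05 without the 5% of cells with the highest doublet scores, an alternative chosen after seeing the data.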

How the results depend on the processing

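The totals of 891 ratios and 112 counts below cover all kept cells and 6 classes. These were mesenchymal-like, endothelial-like, neutrophil-like, macrophage/monocyte-like, T cell-like and B cell-like cells. Neutrophil precursor-like, dendritic-like, basophil/mast-like, pericyte/mural-like and NK cell-like cells were not in these totals. The totals include ratios that could not move, which count among the 811 below. Another least number of UMIs only set which ratios were listed. Another resolution, or the members kept among the variable genes, left the values of all kept cells as they were. Of 891 recomputed log2 ratios (HFD over ND), 811 moved by less than the counting error, 80 moved by more, and 0 past 1.5-fold took the other sign. The sign differed in 30, of which 23 had an interval that held 0. The 7 others were, after thinning, Mt1 (-0.14 to 0.019) and Mt2 (-0.22 to 0.13) over all kept cells, Nr3c1 in T cell-like (0.37 to -0.086) and Mt2 in neutrophil-like cells (-0.42 to 0.047), the last also without the highest doublet scores (0.44), and Txnip in T cell-like cells (-0.27 to 0.023 with the same cluster weights and 0.039 without clusters mostly of ND). Mt1 was lower in HFD in 5 of 11 classes, and in 9 of 11 with cells over 200 genes. Of 112 counts of members past 1.5-fold, 21 moved by over 1.5 times. In each case where a value moved, the cause was not tested. The alternatives chosen after seeing the data were removal of the 5% highest doublet scores, of the clusters with over 70% ND cells, and of the mesenchymal subcluster with neutrophil RNA. The count of members past 1.5-fold in B cell-like cells was 4 with the members kept among the variable genes and 1 with cells over 200 genes, after thinning, with median-of-ratios or TMM scaling, or without the highest doublet scores. In T cell-like cells it was 2 with the members kept, under both scalings and without the highest doublet scores, 3 with at least 1 UMI, and 0 after thinning or with the same cluster weights. In macrophage/monocyte-like cells it was 0 at resolution 0.25 and 1 with cells over 200 genes, at least 100 UMIs, or without clusters mostly of ND. It was 1 over all kept cells after thinning, 0 in endothelial-like cells after thinning and 1 with at least 100 UMIs, and 1 in neutrophil-like cells without the cluster mostly of ND. Thinning gave Tsc22d3 -0.23 in B cell-like and -0.29 in T cell-like cells, and in mesenchymal-like cells Sgk1 -0.89, Mt1 -0.86 and Mt2 -0.77. With the same cluster weights Tsc22d3 was -0.41 over all cells, -0.24 in B cell-like, -0.31 in T cell-like, -0.29 in macrophage/monocyte-like and -1.02 in neutrophil-like cells, and mesenchymal Mt1 was -0.70 and Mt2 -0.76. Mesenchymal Mt1 was -0.81 under either scaling, and mesenchymal Sgk1 -0.89 without the highest doublet scores and -0.93 without the subcluster with neutrophil RNA. The log2 level of the highest ND class over the next, taken in HFD instead, was -1.34 for Fkbp5 (mesenchymal over dendritic), 1.25 for Sgk1, 0.98 for Mt1, 0.70 for Mt2 and 1.46 for Txnip. After thinning it was -1.40 for Zbtb16, -0.58 for Hsd11b1, 2.52 for Mt2 and 0.30 for Txnip. Without mitochondrial and ribosomal UMIs in the total it was -0.26 for Hsd11b1 (neutrophil over NK), and without the highest doublet scores 0.071 for Sgk1, 0.54 for Mt1 and 0.80 for Txnip. No paired analysis was possible because each diet was 1 matrix whose barcodes could not be tied to mice.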
